A study of Mus musculus with 6 samples.

Results

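The genes described here are 39 members of the Wnt signalling pathway, taken by gene symbol from a list of ligands, Frizzled and LRP receptors, secreted antagonists, feedback targets and other pathway components. All 39 were found among the 54429 gene rows of each count file, and 38 of them passed the filter on low counts, Wnt11 being the exception. RNA came from mouse prefrontal cortex injected with an adeno-associated virus of serotype AAV9, sequenced as stranded total RNA after removal of ribosomal RNA. There were 3 libraries from cortex given AAV9 with a short hairpin RNA (shRNA) against Kmt5b, a histone methyltransferase, and 3 control libraries from cortex given AAV9 with green fluorescent protein (GFP). The mice were 6 to 8 weeks old in both groups. The labels name the genotype of every library as C57BL6/J, whereas the design text names a cross of C57BL/6 and C3H and counts 2 GFP mice for the 3 GFP libraries, so a pair of GFP libraries may come from 1 mouse; the extraction protocol names biological duplicates for each group. The p-values below therefore describe the spread among these libraries, which may in part be technical. The vector's promoter and the cells it reached are not given in the sources used here, and each library is whole tissue, in which fewer cells of a type and less RNA per cell cannot be told apart.

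Wnt ligands are secreted glycoproteins that Porcn lipidates in the endoplasmic reticulum and Wls carries to the cell surface. They bind a Frizzled receptor together with Lrp5 or Lrp6, which stops the destruction complex of Apc and Axin proteins from degrading beta-catenin (Ctnnb1), and beta-catenin then acts with Tcf and Lef factors on target genes. Several targets, among them Axin2, Nkd1, Rnf43 and Znrf3, encode inhibitors of the same pathway and so serve as feedback readouts, while Frizzled-related proteins bind Wnt ligands outside the cell. In the brain the pathway is known for patterning, vessel growth and synapse formation.

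Total counts were 57486203, 48828638 and 54254006 in the Kmt5b shRNA libraries, against 69869079, 29490771 and 74723284 in the GFP libraries, GFP replicate 2 being the shallowest. The targeted gene checks the labels only weakly: Kmt5b was at 68.5, 80.3 and 63.9 CPM (counts scaled to a common library size) in the Kmt5b shRNA libraries, against 86.5, 79.7 and 80.9 CPM in the GFP libraries. The library labelled Kmt5b shRNA replicate 2 lay within the GFP range, and the log2 fold change of -0.22 ± 0.10 (SE) had an edgeR adjusted p of 0.303, so each direction below rests on the labels. Even numbers made up 68.1% to 68.3% of counts between 2 and 20 in the Kmt5b shRNA libraries and 74.8% to 76.7% in the GFP libraries. These ranges do not overlap, so this difference cannot be told apart from that between the groups. Its part in any result was not tested. Calls use edgeR's quasi-likelihood test with a Benjamini-Hochberg adjusted p under 0.05 over all 24419 genes tested. With 3 libraries in each group, the smallest two-sided p of an exact permutation test is 0.1.

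Set per kilobase of annotated exon, the 39 genes differed widely in level. Dkk3, a divergent Dickkopf family protein that is abundant in cortical neurons, was highest, at 199.9 CPM per kb with Kmt5b shRNA and 180.9 CPM per kb with GFP. Next in both groups came Ctnnb1, at 101.4 CPM per kb with Kmt5b shRNA and 88.9 with GFP, then Apc, at 46.9 with Kmt5b shRNA and 42.7 with GFP. Fzd3, a receptor that guides axons, followed at 23.1 CPM per kb with Kmt5b shRNA and 22.9 with GFP. Among the ligands Wnt7b was highest, at 10.6 CPM per kb with Kmt5b shRNA and 9.27 with GFP, followed by Wnt9a, Wnt4 and Wnt10a in both groups. Wnt10b held rank 9 of the 14 ligands in the Kmt5b shRNA libraries (0.809 CPM per kb) and rank 12 in the GFP libraries (0.162 CPM per kb), while Fzd10 held rank 23 of the 39 genes in the Kmt5b shRNA libraries (1.34 CPM per kb) and rank 30 in the GFP libraries (0.594 CPM per kb).

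**Figure D1:**
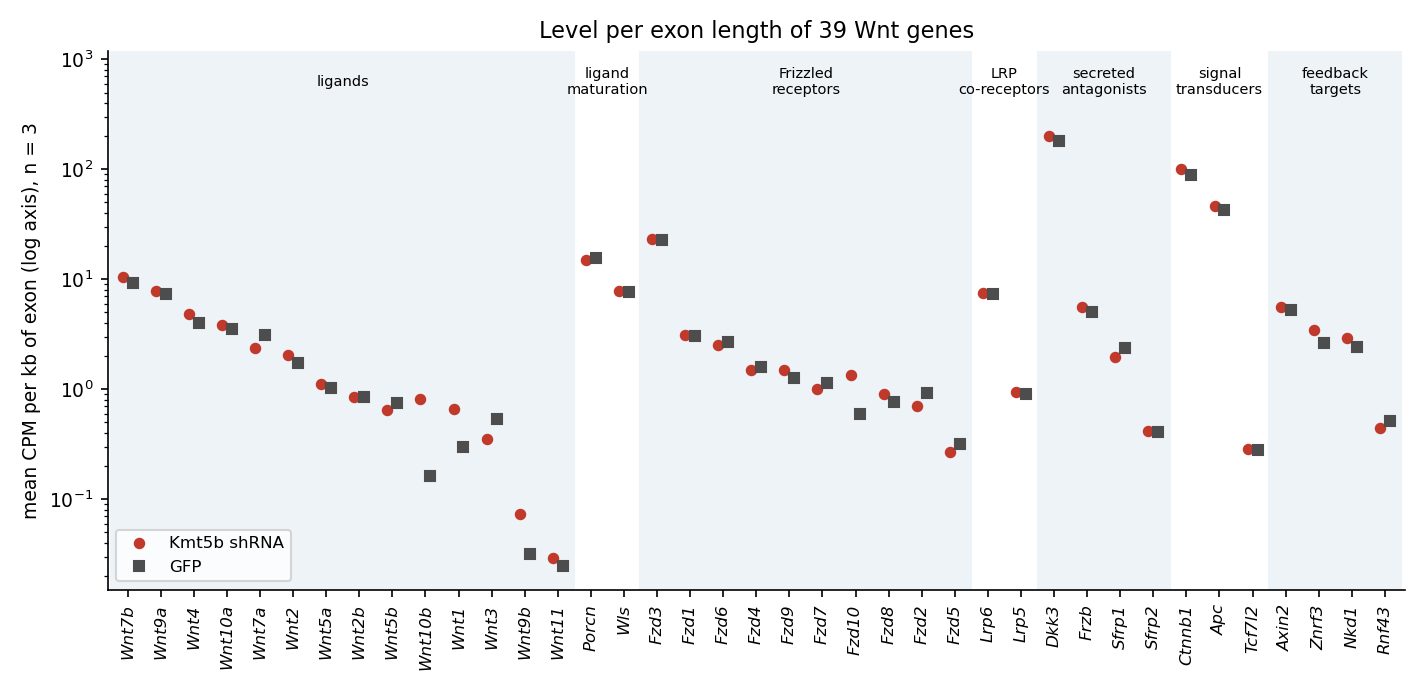
Mean CPM per kilobase of exon on a log axis for the 39 Wnt genes, grouped by role, with Kmt5b shRNA as red circles and GFP as grey squares (n = 3 libraries each). Dkk3 and Ctnnb1 lie at the top, and the widest gap between a circle and its square is that of Wnt10b, at 0.809 against 0.162 CPM per kb.

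Of the 38 tested members, 3 were called higher in the Kmt5b shRNA libraries, the ligand Wnt10b, the receptor Fzd10 and the feedback inhibitor Znrf3, and 0 were called lower. Over all 24419 genes, 2.77% were called higher and 5.69% lower by the same edgeR rule. At an unadjusted edgeR p under 0.05, 5 members were higher and 2 lower. The share of all genes at that unadjusted threshold is not given here, so this count has no background to be set against. The same holds for the unadjusted counts of the role classes, pathway lists and marker lists below. DESeq2 called 4 members higher, adding Wnt1, and 0 lower, with 3.59% of all genes higher and 6.3% lower by that tool. The median log2 fold change of the 38 members was 0.06, against -0.02 over all genes tested. Of the 38 members 27 were above 0, while 47.3% of all genes tested were. Among 96 tested genes of the wider pathway, described below, 63 were above 0, so a majority above 0 was not particular to the members. The share above 0 among protein-coding genes alone is not given here. The values over all genes include genes that are not protein-coding. The groups did not overlap, with every Kmt5b shRNA library above, in 5 members (9.84% of all genes tested), and with every one below in 2 members (12.7% of all genes). When protein-coding genes without long stretches shared with other genes were fitted alone, a fit that called 0.873% of its 13166 genes higher and 0.433% lower, Wnt10b was the called member. When all protein-coding genes were fitted alone, a fit that called 2.99% of genes higher and 1.17% lower, Wnt10b and Fzd10 were called.

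Wnt10b, a secreted ligand that signals through beta-catenin and is known for opposing fat cell formation and promoting bone formation, was the member with the highest fold change. It was at 2.69, 2.65 and 2.92 CPM in the Kmt5b shRNA libraries (153, 123 and 160 counts), against 0.598, 0.390 and 0.665 CPM in the GFP libraries (40, 12 and 52 counts). Every Kmt5b shRNA library thus lay far above every GFP library, and the spread within each group was small beside the gap. The means were 2.75 ± 0.145 CPM with Kmt5b shRNA and 0.551 ± 0.143 CPM with GFP (SD, n = 3 each), a fold change of 4.84, or 2.27 ± 0.28 (SE) on the log2 scale, with an edgeR adjusted p of 3.33e-05. The adjusted p stayed below the threshold in all 14 alternative analyses, between 2.36e-12 and 0.0027, and the log2 fold change lay between 2.12 and 2.42.

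**Figure D2:**
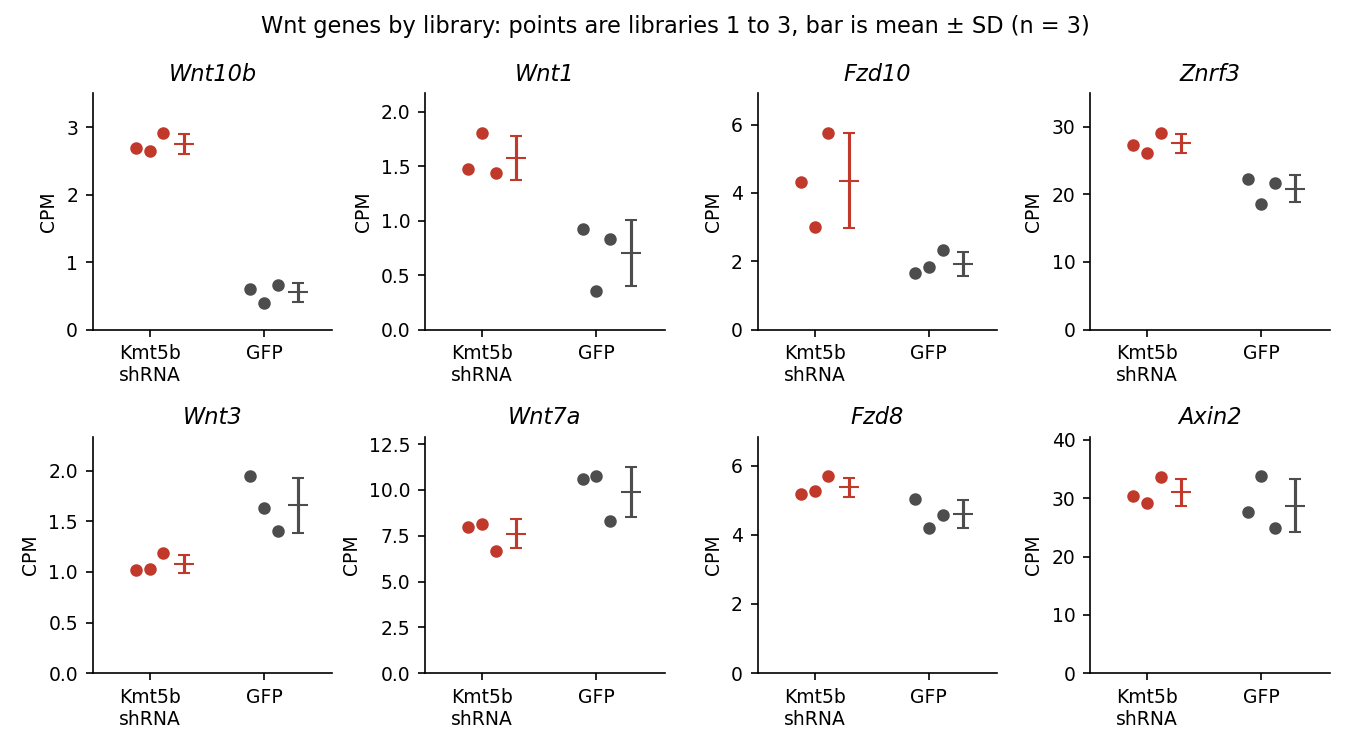
CPM in each library (points, replicates 1 to 3 from left to right) with the mean ± SD beside them (n = 3), Kmt5b shRNA in red and GFP in grey, for the 7 members whose groups do not overlap and for Axin2. Wnt10b is at 2.65 to 2.92 CPM in the Kmt5b shRNA libraries and at 0.390 to 0.665 CPM in the GFP libraries, while the Axin2 values of both groups overlap.

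Wnt10b lies on chromosome 15 from 98770712 to 98778150 on the minus strand (mm10, GENCODE M21), head to head with Wnt1, which lies from 98789857 to 98793837 on the plus strand. The 2 ligand genes are 11707 bases apart with no annotated gene between them. Wnt1, the founding member of the family and a midbrain patterning signal, was at 1.48, 1.81 and 1.44 CPM in the Kmt5b shRNA libraries, against 0.927, 0.358 and 0.831 CPM in the GFP libraries. The groups did not overlap, with GFP replicate 2 the lowest library. Wnt1 had a log2 fold change of 1.10 ± 0.34 (SE), at an edgeR adjusted p of 0.0658, just outside the threshold, and between 0.0192 and 0.181 over the alternatives. It passed in 3 of 14 alternatives, with DESeq2, with no filter on low counts and without GFP replicate 1 (edgeR adjusted p = 0.0474). Without GFP replicate 2, which had 11 Wnt1 counts, the log2 fold change was 0.84 and the edgeR adjusted p 0.176.

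The genes outside this pair were read in the same fit. Arf3, which encodes a Golgi GTPase and lies 7498 bases beyond the Wnt10b end, was at 1040, 908 and 856 CPM in the Kmt5b shRNA libraries, against 994, 718 and 779 CPM in the GFP libraries, with overlapping groups (log2 fold change 0.17 ± 0.13, edgeR adjusted p = 0.594). Ddn, which encodes the postsynaptic protein dendrin and lies 9940 bases beyond Wnt1, was at 1073, 987 and 861 CPM in the Kmt5b shRNA libraries, against 821, 510 and 710 CPM in the GFP libraries. The Ddn groups did not overlap and differed by a log2 fold change of 0.52 ± 0.15 at an edgeR adjusted p of 0.0623.

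**Figure D3:**
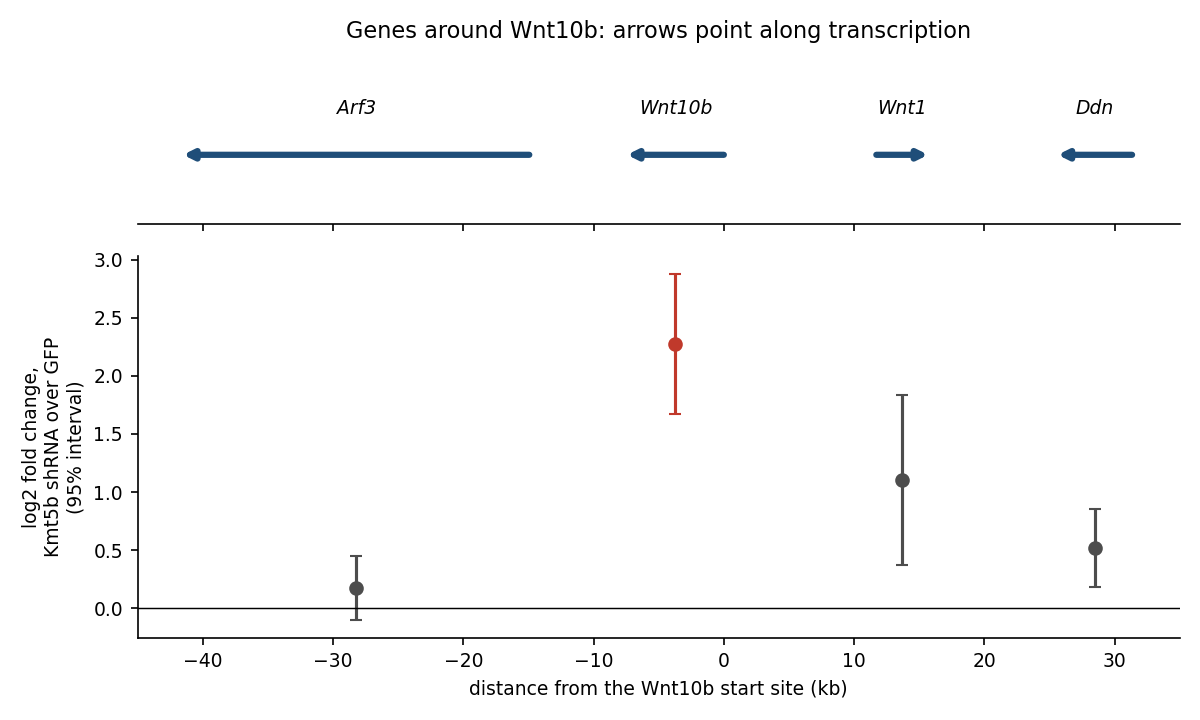
Upper panel: the genes around Wnt10b, drawn by distance from its start site in kilobases, with arrows along transcription. Lower panel: the log2 fold change of each gene, Kmt5b shRNA over GFP, with its 95% interval (n = 3 libraries each), red where the edgeR adjusted p is under 0.05; Wnt10b is highest at 2.27, Wnt1 has 1.10, Ddn 0.52 and Arf3 0.17.

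The 250 bases before the start sites of this ligand pair are shown because they hold the promoters that face each other across the gap, read 5′ to 3′ along each gene from RefSeq's start sites (GRCm38.p6), with CpG dinucleotides in capitals. The Wnt10b stretch is chr15:98778151-98778400 on the minus strand and the Wnt1 stretch chr15:98789607-98789856 on the plus strand.
Wnt10b: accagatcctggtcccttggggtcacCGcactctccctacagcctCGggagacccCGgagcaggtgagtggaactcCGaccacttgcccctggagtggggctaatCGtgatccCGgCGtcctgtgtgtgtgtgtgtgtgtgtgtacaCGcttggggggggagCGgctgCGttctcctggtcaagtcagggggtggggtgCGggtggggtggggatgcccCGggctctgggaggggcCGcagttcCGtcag
Wnt1: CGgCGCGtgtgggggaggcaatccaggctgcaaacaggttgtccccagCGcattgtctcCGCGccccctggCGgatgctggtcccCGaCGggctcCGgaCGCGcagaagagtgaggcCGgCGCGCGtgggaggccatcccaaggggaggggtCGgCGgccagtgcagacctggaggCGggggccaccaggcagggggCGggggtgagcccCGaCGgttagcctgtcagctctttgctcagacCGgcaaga
The Wnt10b stretch had a GC content of 66.8% and 14 CpG dinucleotides, and the Wnt1 stretch 71.6% and 23, against medians of 52.4% and 6 over 32851 RefSeq promoter windows. Wnt10b also carried an unbroken run of 11 TG repeats (22 bases), a length reached on either strand in 0.167% of those windows. That length was set from the Wnt10b stretch itself, so the share describes the run and is not a test. Any link of the run to the Wnt10b level was not tested. High GC and CpG content was not particular to this pair. Over 300 bases around the start, the member windows had medians of 70% GC and 27 CpG dinucleotides. On that measure Wnt10b had 66.3% and 18, and Wnt1 70.7% and 26. The motif bound by Tcf and Lef factors, searched as CTTTGAA, or CTTTGAT, or CTTTGTA, or CTTTGTT, on both strands of the 300 bases from 250 before to 50 after each start, was not among the letters of the Wnt10b, Wnt1 or Fzd10 window. Of the 25 members with a window, 5 held it (Fzd7, Tcf7l2, Wnt11, Wnt3 and Wnt5b), in 5 of their 31 windows, against 16.9% of all windows. The feedback targets Axin2, Nkd1 and Rnf43 did not hold it in their windows either, and the called member Znrf3 had no window. Absence from windows this short therefore does not show absence of Tcf or Lef binding.

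The other ligands did not pass in either direction. Wnt7a, a ligand of brain vessel growth and synapse formation, was at 7.96, 8.16 and 6.69 CPM in the Kmt5b shRNA libraries, against 10.6, 10.7 and 8.31 CPM in the GFP libraries, so that all Kmt5b shRNA libraries were below all GFP libraries, though by a narrow gap. Its log2 fold change was -0.38 ± 0.16 (edgeR adjusted p = 0.203). Wnt3, another beta-catenin ligand, was at 1.02, 1.03 and 1.18 CPM in the Kmt5b shRNA libraries, against 1.94, 1.63 and 1.41 CPM in the GFP libraries, again without overlap, with a log2 fold change of -0.62 ± 0.28 (edgeR adjusted p = 0.253). Wnt7b, the ligand of highest level per length, was at 56.5, 54.0 and 45.3 CPM in the Kmt5b shRNA libraries, against 48.6, 40.0 and 47.8 CPM in the GFP libraries, and the groups overlapped (log2 fold change 0.19 ± 0.11, edgeR adjusted p = 0.444). Wnt10a ranged from 7.81 to 10.3 CPM in the Kmt5b shRNA libraries and from 5.51 to 13 CPM in the GFP libraries, the GFP spread resting on a high replicate 2. Wnt9b was at or below 0.602 CPM in every library. Wnt2, Wnt2b, Wnt4, Wnt5a, Wnt5b, Wnt9a, Wnt9b and Wnt10a overlapped between groups. Wnt5b lies over Fbxl14 on the opposite strand, which had 10283 counts over all libraries against 598 for Wnt5b, and without a stated strand setting the reads of both genes cannot be told apart. Wnt11, which was not tested, had 15, 2 and 3 counts in the Kmt5b shRNA libraries, against 6, 0 and 17 in the GFP libraries.

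Summed over the 14 ligands, levels were 133.3 to 145.6 CPM in the Kmt5b shRNA libraries and 119.8 to 130.0 CPM in the GFP libraries, a sum made up mostly of Wnt7b, Wnt9a and Wnt4. Of the other neighbouring ligand genes, Wnt9b and Wnt3, head to head on chromosome 11, had log2 fold changes of 1.10 and -0.62, neither of them called. Ligand maturation genes lay close to their control levels. Porcn, the acyltransferase, was at 48.8, 43.9 and 42.6 CPM in the Kmt5b shRNA libraries, against 47.7, 45.2 and 48.0 CPM in the GFP libraries (log2 fold change -0.06, 95% interval -0.26 to 0.15, edgeR adjusted p = 0.848). Wls had a log2 fold change of 0.05 with a 95% interval from -0.17 to 0.27.

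Fzd10, a Frizzled receptor without introns whose gene lies on chromosome 5 from 128600844 to 128604093 (plus strand), was the called receptor. It was at 4.32, 2.99 and 5.76 CPM in the Kmt5b shRNA libraries (246, 139 and 316 counts), against 1.64, 1.82 and 2.33 CPM in the GFP libraries (110, 56 and 182 counts). The groups did not overlap, but the Kmt5b shRNA libraries differed widely among themselves, with replicate 3 highest and replicate 2 nearest to the controls. The means, 4.36 ± 1.38 CPM with Kmt5b shRNA and 1.93 ± 0.354 CPM with GFP (SD, n = 3 each), gave a fold change of 2.25, or 1.17 ± 0.26 (SE) on the log2 scale, with an edgeR adjusted p of 0.00794. Without Kmt5b shRNA replicate 3 the log2 fold change was 0.93 and the adjusted p 0.0538, and among genes sharing no sequence the adjusted p was 0.0682, the highest of the alternatives, which began at 7.92e-05. The noncoding gene 5930412G12Rik, on the opposite strand with its start 151 bases before Fzd10, was at 3.18, 3.06 and 3.37 CPM in the Kmt5b shRNA libraries, against 2.48, 2.21 and 2.89 CPM in the GFP libraries. These groups did not overlap either, with a log2 fold change of 0.33 ± 0.21 and an edgeR adjusted p of 0.501. Piwil1, the next gene on the other side, 98431 bases away, had a log2 fold change of -0.11 ± 0.61.

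The remaining Frizzled receptors showed no called difference, and the list of 10 had a median log2 fold change of -0.04. Fzd3, by far the highest of the family, was at 278.7, 343.4 and 264.9 CPM in the Kmt5b shRNA libraries, against 296.3, 302.6 and 282.0 CPM in the GFP libraries, with a log2 fold change of 0.01 and a 95% interval from -0.23 to 0.25; its sign turned with upper-quartile scaling. Fzd8, a Frizzled receptor of low level here, was at 5.17, 5.27 and 5.69 CPM in the Kmt5b shRNA libraries, against 5.02, 4.20 and 4.56 CPM in the GFP libraries. Its groups did not overlap, but by less than their spread (log2 fold change 0.22 ± 0.18, edgeR adjusted p = 0.614). Fzd1, Fzd2, Fzd4, Fzd5, Fzd6, Fzd7 and Fzd9 overlapped between groups, with log2 fold changes from -0.39 for Fzd2 to 0.24 for Fzd9. Of the LRP co-receptors, Lrp6 was at 99.2, 106.0 and 104.6 CPM in the Kmt5b shRNA libraries, against 96.2, 110.5 and 94.0 CPM in the GFP libraries (log2 fold change 0.04, 95% interval -0.16 to 0.25). Lrp5 had a log2 fold change of 0.04 with a wider interval, -0.35 to 0.43, and it shares a stretch of 200 nucleotides with Zfp626.

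Secreted antagonists held no called gene in either direction with edgeR or DESeq2, and 0 of 4 had an unadjusted edgeR p under 0.05. Dkk3 was at 666.8, 720.5 and 626.9 CPM in the Kmt5b shRNA libraries, against 664.4, 628.7 and 529.7 CPM in the GFP libraries (log2 fold change 0.14, 95% interval -0.09 to 0.38, edgeR adjusted p = 0.607). Sfrp1, a Frizzled-related protein that binds Wnt ligands, was at 8.77, 9.47 and 7.66 CPM in the Kmt5b shRNA libraries, against 11.1, 8.33 and 11.8 CPM in the GFP libraries, overlapping through GFP replicate 2 (log2 fold change -0.28 ± 0.16, edgeR adjusted p = 0.422). Frzb, of the same family, was at 21.9, 17.7 and 14.5 CPM in the Kmt5b shRNA libraries, against 19.6, 7.52 and 22.1 CPM in the GFP libraries. GFP replicate 2 thus stood apart for Frzb, whose interval ran from -1.04 to 1.28 on the log2 scale. Sfrp2 lay between 0.732 and 1.09 CPM in the Kmt5b shRNA libraries and between 0.843 and 0.943 CPM in the GFP libraries.

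None of the 3 intracellular transducers was called by edgeR or DESeq2, and 0 had an unadjusted edgeR p under 0.05. Ctnnb1 was at 524.4, 563.8 and 491.1 CPM in the Kmt5b shRNA libraries, against 522.7, 415.1 and 446.8 CPM in the GFP libraries, with GFP replicate 1 inside the Kmt5b shRNA range (log2 fold change 0.19, 95% interval -0.05 to 0.43, edgeR adjusted p = 0.440). Apc had a log2 fold change of 0.14 (95% interval -0.10 to 0.37). It shares sequence with an annotated pseudogene copy, with a longest match of 427 nucleotides against 16.1 kb of exon. Its value is uncertain to that extent. Tcf7l2, the Tcf factor that marks thalamus and maturing oligodendrocytes, was low, averaging 2.51 ± 0.216 CPM with Kmt5b shRNA and 2.48 ± 0.520 CPM with GFP (SD, n = 3 each). It had a log2 fold change of 0.00 with an interval from -0.50 to 0.51.

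Among the feedback targets Znrf3 was called and Axin2, a widely used readout of beta-catenin signalling, was not. Znrf3, a ubiquitin ligase that removes Frizzled receptors from the cell surface, was at 27.3, 26.2 and 29.1 CPM in the Kmt5b shRNA libraries, against 22.2, 18.6 and 21.7 CPM in the GFP libraries. All Kmt5b shRNA libraries were above all GFP libraries, and the means were 27.5 ± 1.47 CPM with Kmt5b shRNA and 20.8 ± 1.96 CPM with GFP (SD, n = 3 each). Znrf3 lies from 5276324 to 5444847 on the minus strand of chromosome 11, and its log2 fold change was 0.40 ± 0.11 (SE) at an edgeR adjusted p of 0.0270. Axin2 was at 30.3, 29.2 and 33.6 CPM in the Kmt5b shRNA libraries, against 27.7, 33.7 and 24.8 CPM in the GFP libraries, with overlapping groups and GFP replicate 2 the highest library. Its log2 fold change was 0.11, with a 95% interval from -0.14 to 0.37 and an edgeR adjusted p of 0.733.

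Nkd1, which binds Dishevelled, had a log2 fold change of 0.28 ± 0.13 (edgeR adjusted p = 0.279), and Rnf43, the relative of Znrf3, had -0.22 ± 0.22 (edgeR adjusted p = 0.723). The Znrf3 call was lost more often than those of Wnt10b and Fzd10. Its edgeR adjusted p was 0.0958 without Kmt5b shRNA replicate 1, 0.0949 without Kmt5b shRNA replicate 3, 0.105 when GFP replicate 2 was left out and 0.0558 when GFP replicate 3 was, and it passed in 8 of 14 alternatives, from 0.0119 to 0.105. Beside it on chromosome 11, at 14766 bases, lies Kremen1, a receptor for Dickkopf proteins, with a log2 fold change of 0.04 ± 0.11 (edgeR adjusted p = 0.923).

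**Figure D4:**
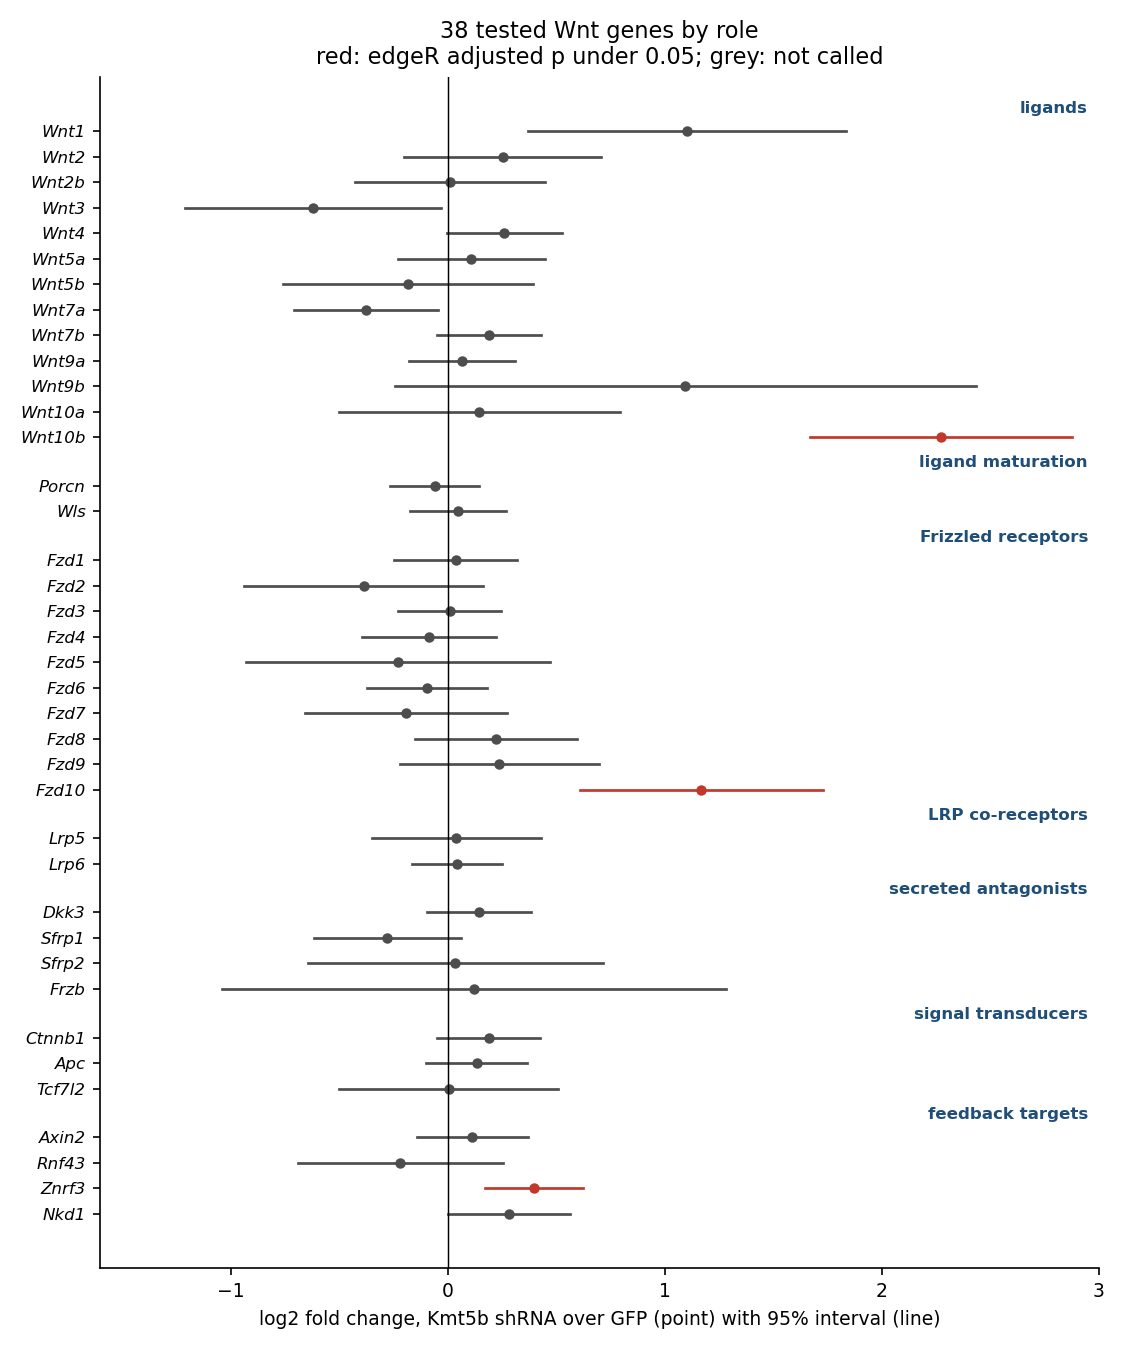
Log2 fold change of the 38 tested Wnt genes, Kmt5b shRNA over GFP (n = 3 libraries each), as points with 95% intervals as lines, grouped by role, red where the edgeR adjusted p is under 0.05 and grey otherwise. Wnt10b at 2.27, Fzd10 at 1.17 and Znrf3 at 0.40 are red, while most other intervals include 0.

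Outside the members, 103 further Wnt pathway genes were read, of which 96 were tested, and 3 were called higher and 1 lower, while 2.77% of all genes tested were called higher and 5.69% lower. The share called higher is thus near that over all genes, and the share called lower is below it. The values over all genes include genes that are not protein-coding. When protein-coding genes were fitted alone, 2.99% of genes were called higher and 1.17% lower. In that fit 1 of these pathway genes was called higher and 1 lower. The median log2 fold change of the 96 tested pathway genes was 0.07, against -0.02 over all genes. The ligand Wnt6 was at 1.41, 1.12 and 1.02 CPM in the Kmt5b shRNA libraries, against 0.568, 0.325 and 0.435 CPM in the GFP libraries, with no overlap, a log2 fold change of 1.38 ± 0.35 and an edgeR adjusted p of 0.0186. The Wnt6 adjusted p was 0.112 when Kmt5b shRNA replicate 1 was left out, 0.0688 when GFP replicate 2 was and 0.0640 when GFP replicate 3 was, and it ranged from 0.00711 to 0.112 over the alternatives. Wnt6 lies 6194 bases from Wnt10a on chromosome 1, in tandem, and Wnt10a had a log2 fold change of 0.15 ± 0.29 (edgeR adjusted p = 0.879).

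Ccnd1, which encodes cyclin D1 and is a target of beta-catenin among other pathways, was at 96.7, 74.4 and 112.1 CPM in the Kmt5b shRNA libraries, against 49.0, 61.0 and 37.6 CPM in the GFP libraries. Replicate 3 was the highest and replicate 2 the lowest Kmt5b shRNA library, as for Fzd10, and the groups did not overlap (log2 fold change 0.94 ± 0.20, edgeR adjusted p = 0.0152). Its adjusted p was 0.125 without GFP replicate 1, the highest of the alternatives, which began at 8.76e-16. The calcium-regulated transcription factor Nfatc3 was at 22.2, 21 and 27.2 CPM in the Kmt5b shRNA libraries, against 15.2, 16.9 and 18.2 CPM in the GFP libraries (log2 fold change 0.49 ± 0.12, edgeR adjusted p = 0.0189). The Nfatc3 adjusted p was 0.0992 without Kmt5b shRNA replicate 3, 0.0646 when GFP replicate 1 was left out and 0.0521 when GFP replicate 2 was, within a range from 0.00178 to 0.104.

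Daam2, a formin that links Dishevelled to the cytoskeleton and modulates Wnt signalling in glia, was lower, at 36.6, 35.9 and 37.1 CPM in the Kmt5b shRNA libraries, against 50.2, 49.3 and 53.8 CPM in the GFP libraries. Both groups were tight and did not overlap, at a log2 fold change of -0.48 ± 0.09 and an edgeR adjusted p of 0.00225, between 0.000134 and 0.0205 over all 14 alternatives. Daam1, its paralogue, had a log2 fold change of 0.19 ± 0.09 (edgeR adjusted p = 0.322). The other branches held no called gene: 0 of 6 R-spondin and Lgr genes, 0 of 7 other co-receptors, 0 of 16 other inhibitors, 0 of 20 Dishevelled and destruction complex genes and 0 of 15 nuclear factors passed with edgeR or DESeq2, with 2, 0, 2, 1 and 1 of them at an unadjusted edgeR p under 0.05. Their members of smallest p were Rspo2 (log2 fold change 0.29, adjusted p = 0.221), Adgra2 (0.26, adjusted p = 0.413), Lrp4 (-0.22, adjusted p = 0.248), Dvl3 (0.33, adjusted p = 0.212) and Bcl9l (0.34, adjusted p = 0.219), all from edgeR.

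Marker genes of the cell types that could carry these transcripts were read in the same fit. Excitatory cortical neuron markers summed to 2673 to 2930 CPM in the Kmt5b shRNA libraries and 2376 to 2780 CPM in the GFP libraries, with 0 of 8 called by edgeR or DESeq2 and 4 at an unadjusted edgeR p under 0.05. Astrocyte markers summed to 3706 to 4162 CPM in the Kmt5b shRNA libraries and 4239 to 4414 CPM in the GFP libraries, with 2 of 8 lower, the water channel Aqp4 (log2 fold change -0.64) and the gap junction gene Gja1 (-0.51). The other 6 astrocyte markers were not called, with log2 fold changes of -0.18 for Slc1a3, -0.16 for Slc1a2, -0.12 for Aldh1l1, -0.03 for S100b, 0.26 for Sox9 and 0.39 for Gfap. Oligodendrocyte markers summed to 1536 to 3242 CPM in the Kmt5b shRNA libraries and 2796 to 4275 CPM in the GFP libraries, with 0 of 8 having a log2 fold change above 0 and 0 called by edgeR (1 at an unadjusted p under 0.05, and 1 called lower by DESeq2). The part of glial transcripts in the Daam2 value was not tested.

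Endothelial markers summed to 255.4 to 281.8 CPM in the Kmt5b shRNA libraries and 268.9 to 305.8 CPM in the GFP libraries, and meningeal fibroblast markers to 59.1 to 88.1 CPM with Kmt5b shRNA and 71.3 to 104.4 CPM with GFP, with 0 of 6 called by edgeR in each (2 and 1 at an unadjusted p under 0.05, and 0 and 1 by DESeq2). Markers of choroid plexus and ependyma, tissues that express Wnt ligands, summed to 6.09 to 10.5 CPM in the Kmt5b shRNA libraries and 6.05 to 9.40 CPM in the GFP libraries, with 0 of 4 called by edgeR, 1 at an unadjusted p under 0.05 and 1 called lower by DESeq2. The choroid plexus gene Ttr had 10, 0 and 5 counts in the Kmt5b shRNA libraries, against 14, 12 and 92 counts in the GFP libraries, GFP replicate 3 being far the highest. Its groups did not overlap on the CPM scale, and its log2 fold change was -2.69 ± 0.83 (edgeR adjusted p = 0.0750). Thalamic markers summed to 178.1 to 190.0 CPM in the Kmt5b shRNA libraries and 172.5 to 187.5 CPM in the GFP libraries, with Lhx2, which cortex also expresses, called higher among 5 tested. Inhibitory neuron markers summed to 549.6 to 586.6 CPM in the Kmt5b shRNA libraries and 542.2 to 609.3 CPM in the GFP libraries, with Pvalb called lower (log2 fold change -0.58) among 6 tested, and 1 higher and 1 lower at an unadjusted edgeR p under 0.05. Vip had a log2 fold change of 0.27 without overlap (edgeR adjusted p = 0.149), Sst had 0.15, and Gad1, Gad2 and Slc32a1 had -0.11, -0.14 and -0.04. Lists for oligodendrocyte precursors, microglia, mural cells, striatum and olfactory bulb held no called gene by edgeR or DESeq2, with 1 precursor and 1 striatal gene at an unadjusted edgeR p under 0.05. The part of any of these in the values of Wnt10b, Fzd10 and Znrf3 was not tested.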

How the data were processed

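RNA of prefrontal cortex was measured in 3 Kmt5b shRNA and 3 GFP libraries, grouped and numbered by their titles. The authors deposited 1 file per library with whole-number counts of reads for each gene symbol. Per the labels' protocols, Cutadapt trimmed the reads and TopHat2 placed them on RefSeq mRNAs, while the submitters' processing notes name STAR, featureCounts, DESeq2 and mm10. The strand setting of the counting is not given in the sources used here; 13 members overlap an annotated gene on the opposite strand, none of the 3 called members among them.

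Counts were filtered with filterByExpr, scaled by TMM and tested with edgeR 4.0.16 (robust quasi-likelihood fit, legacy=TRUE) in R 4.3.3, with Benjamini-Hochberg adjustment at 0.05 over 24419 genes. The SE was taken as the size of the log2 fold change over the root of its F statistic, and intervals are 95%. CPM uses TMM library sizes. Levels per kb divide by the union of GENCODE M21 exons, which may differ from the exons the authors counted. Each library counted as 1 sample. Replicates of a group differed beyond sampling noise (mean chi-square of 18.2 to 45.0 for each gene). Libraries of 1 mouse can differ in this way too, so these values cannot show whether a pair of GFP libraries shares a mouse. The test was checked on simulated counts.

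Sequence sharing was found with BLAST+ 2.17.0 between the longest transcripts of protein-coding genes and of pseudogenes, at 90% identity over at least 200 nucleotides or 50% of a gene. Apc and Lrp5 were the 2 members with such a match. Alternatives were DESeq2 1.42.0, RLE and upper-quartile scaling, other filters on low counts, protein-coding genes alone, genes sharing no sequence alone, the replicate number as a block, and each library left out in turn. The members and lists were chosen with earlier results of these data known. Genes described in full were the called members, those whose groups did not overlap, and the member of highest level and of smallest p in each role; of the other pathway genes, those called and the one of smallest p in each list; and the nearest annotated genes beside the called members and Wnt1. Promoter windows are RefSeq's (GRCm38.p6).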

Additional observations from a re-analysis of the deposited data

How the results depend on the processing

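Of the 3 called members, Wnt10b passed in all 14 alternatives, Fzd10 in 12 and Znrf3 in 8. The number of members called higher was 3, and it was 1 (Wnt10b) among genes sharing no sequence, 2 (Wnt10b and Fzd10) among protein-coding genes and 4 with DESeq2 and with no filter, where Wnt1 also passed. With a library left out it ranged from 1 to 4, the lowest value without Kmt5b shRNA replicate 3. The number called lower was 0 throughout these alternatives. Over all genes 676 were higher and 1390 lower, against 115 and 57 among genes sharing no sequence and 471 and 184 among protein-coding genes; in the other alternatives with edgeR, 1.85% to 3.66% of genes were higher and 4.87% to 6.17% lower. Of the other pathway genes, 3 were higher, against 0 among genes sharing no sequence, 1 (Ccnd1) among protein-coding genes and 1 to 3 with a library left out, 1 without GFP replicate 2. Daam2 was lower in every alternative, with Celsr1 as a second gene (2 in place of 1) without GFP replicate 1, so that the range with a library left out was 1 to 2. Why fewer genes pass in the smaller fits was not tested. Both leave out genes that are not protein-coding, and the fit of genes sharing no sequence also leaves out genes with copies. The share called higher was 2.77% over all genes, 2.99% among protein-coding genes and 0.873% among genes sharing no sequence. The share called lower was 5.69%, 1.17% and 0.433% in the same order. Rspo2 passed without Kmt5b shRNA replicate 3 (edgeR adjusted p = 0.0488). The sign of the Fzd3 log2 fold change, 0.01 as reported, turned to -0.0093 with upper-quartile scaling, -0.00078 among genes sharing no sequence and -0.0067 among protein-coding genes, and ranged from -0.11 to 0.093 with a library left out; that of Lrp6 ranged from -2.8e-05 to 0.12. The Kmt5b log2 fold change ranged from -0.31 to -0.14 with a library left out.

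The replicate number as a block kept 3 members higher and 0 lower. It left 2 other pathway genes higher, Ccnd1 having an edgeR adjusted p of 0.116, and 1 lower. Deviations of same-numbered libraries correlated across genes at -0.04, -0.07 and 0.34 for numbers 1, 2 and 3. Between differently numbered libraries of the 2 groups the correlations ranged from -0.35 to 0.38. The numbers were therefore not read as pairs in the main fit, and the source of the larger correlations was not tested. Counts of 12 to 52 behind the GFP values of Wnt10b limit the precision of its fold change, and members near or below 1 CPM, such as Wnt3, Sfrp2 and Wnt9b, have wide intervals.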
